A study of Mus musculus with 2 samples.

Results

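The microRNA genes Mir199a-1, Mir199a-2, Mir199b, Mir214 and Mir140, which are known from connective tissue, were followed in small RNA of the mouse gastrocnemius, the large calf muscle. They are 5 of the 2202 microRNA genes counted in each table, and were chosen by gene name in the GENCODE M21 annotation, not by a threshold on their levels. The tissue came from males of the hybrid strain B6CASTF1/J, the first generation of a cross of C57BL/6J with CAST/EiJ, aged 18 to 20 months. The 2 libraries, replicate 1 and replicate 2 of a single group, hold inserts under 30 nt, and no treatment or control is part of the series. The replicates have separate biosample entries but share a donor entry, and nothing states that they came from separate animals, so differences between them may be technical.

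MicroRNAs are cut from hairpin precursors, and the mature strand pairs with target mRNAs mainly through its seed, bases 2 to 8, which lowers the stability and translation of those mRNAs. Mir199a-2 and Mir214 are processed from the same long transcript, Dnm3os, which runs antisense to the dynamin gene Dnm3, and the other Mir199 genes lie antisense to Dnm2 and Dnm1. Products of these genes are known from mesenchymal cells and fibroblasts, where miR-199a-5p targets Caveolin-1 in fibrosis, and miR-214 targets Ezh2 in differentiating muscle cells. Mir140 lies in Wwp2 and is best known from cartilage, where SOX9 drives its expression and where it restrains the matrix protease ADAMTS5.

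The mature sequences are shown first because a read that matches more than 1 place is left out of the gene counts. All 5 hairpins were found in the RefSeq table of the GRCm38.p6 build, and the hairpins were identical in position and sequence to the GENCODE precursors. The table listed 8 mature entries for them, 6 names with 5 distinct sequences. Capitals mark the seed, 5′ to 3′:
miR-199a-5p (Mir199a-1 and Mir199a-2): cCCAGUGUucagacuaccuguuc
miR-199a-3p and miR-199b-3p (all 3 Mir199 genes): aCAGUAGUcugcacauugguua
miR-214-5p (Mir214): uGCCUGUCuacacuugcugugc
miR-214-3p (Mir214): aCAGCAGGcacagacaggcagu
miR-140-3p (Mir140): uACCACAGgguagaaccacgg

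The 3 Mir199 genes shared their 3p arm letter for letter, and the 2 Mir199a genes shared their 5p arm as well. Mature entries of miR-199b-5p and miR-140-5p were not among those listed. The stretch of the Mir199b hairpin nearest to miR-199a-5p ran from base 26 to base 48 and differed at 1 position, C10U, counted from the 5′ end of miR-199a-5p. That stretch follows with the differing base in capitals:
Mir199b, bases 26 to 48: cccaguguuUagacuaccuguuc
The 5 listed seeds were all different, so the listed arms of Mir214 and Mir140 shared no seed with each other or with those of the Mir199 genes. The 5p sides of Mir199b and Mir140 were not compared by seed. Among the other mature microRNAs listed, miR-761 carried the seed of miR-214-3p and miR-497b that of miR-140-3p. Their genes had few counts or none: Mir761 had 0 counts in replicate 1 and 3 in replicate 2, and Mir497b had 0 in both.
miR-761 (seed in capitals): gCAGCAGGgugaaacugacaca

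The hairpins show how far the copies reach beyond the mature arms. Below, capitals mark the mature arms that RefSeq lists:
Mir199a-1: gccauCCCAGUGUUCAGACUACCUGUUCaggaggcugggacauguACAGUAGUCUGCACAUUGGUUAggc
Mir199a-2: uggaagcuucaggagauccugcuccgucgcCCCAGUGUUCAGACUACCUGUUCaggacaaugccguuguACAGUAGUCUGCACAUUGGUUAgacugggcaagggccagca
Mir199b: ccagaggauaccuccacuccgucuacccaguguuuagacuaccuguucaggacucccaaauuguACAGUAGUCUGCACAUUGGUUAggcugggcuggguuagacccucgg
Mir214: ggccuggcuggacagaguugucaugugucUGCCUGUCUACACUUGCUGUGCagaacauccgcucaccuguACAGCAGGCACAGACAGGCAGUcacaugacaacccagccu
Mir140: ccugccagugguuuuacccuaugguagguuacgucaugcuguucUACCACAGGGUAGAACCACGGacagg

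The longest stretch common to Mir199a-1 and Mir199a-2 was 27 bases and spanned the whole 5p arm. Mir199a-1 and Mir199b had 28 bases in common and Mir199a-2 and Mir199b 27 bases, both across the 3p arm. Mir214 and Mir140 had no stretch of 20 bases in common with any microRNA gene at another locus, on either strand, whereas 1087 of the 2202 genes (49.4%) had one. Between Mir214 and the Mir199 hairpins the longest common stretch was 7 bases. Of the windows of 22 bases in each hairpin, 36 of 49 in Mir199a-1, 77 of 89 in Mir199a-2 and 81 of 89 in Mir199b occurred in no other microRNA gene, yet none of those windows lies inside a listed mature arm.

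**Figure D1:**
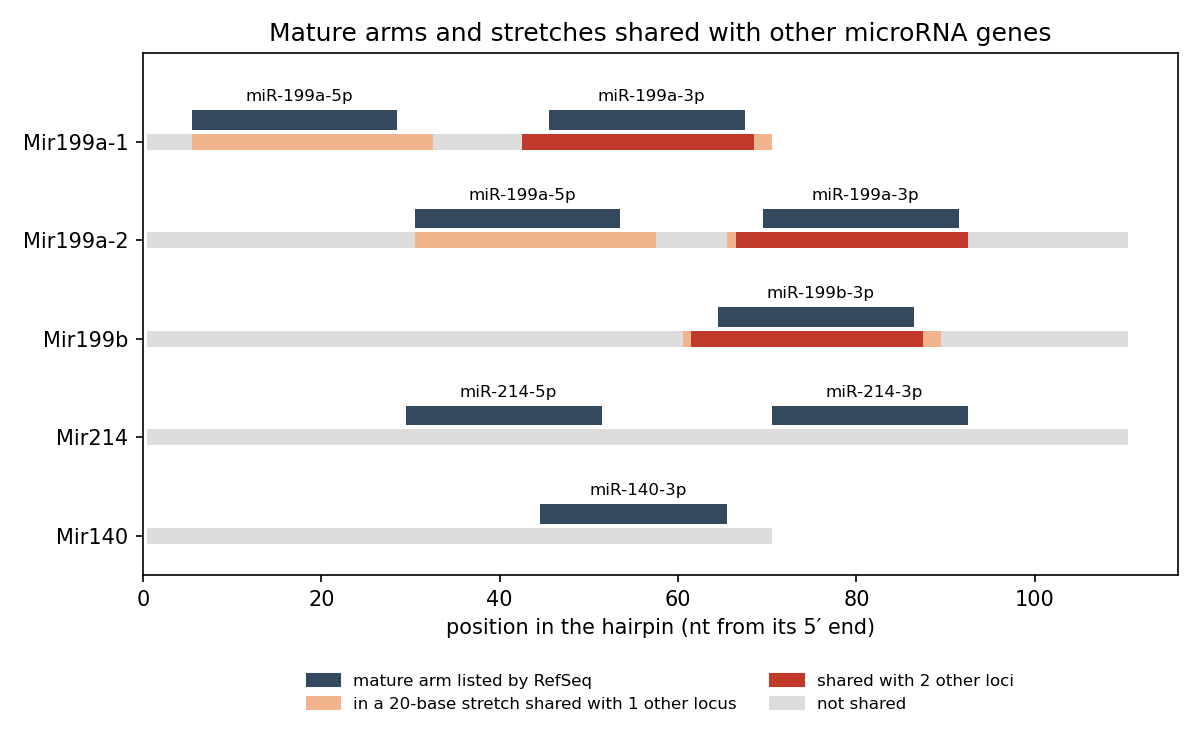
Map of the 5 hairpins, drawn to scale in nt from the 5′ end. Dark bars are the mature arms listed by RefSeq, and the colour of the lower bar gives how many other microRNA loci share a 20-base stretch covering that base. The listed arms of the 3 Mir199 genes lie within shared stretches, and Mir214 and Mir140 have none.

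On the mm10 assembly Mir199a-2 (ENSMUSG00000070126.1) lies at chr1:162217814-162217923 and Mir214 (ENSMUSG00000065516.1) at chr1:162223368-162223477, both on the plus strand. They are 5444 nt apart, overlap exons of Dnm3os on their own strand and lie in an intron of Dnm3 on the other strand. Mir199b (ENSMUSG00000092807.1) lies at chr2:32318460-32318569, plus strand, in an intron of Dnm1 on the other strand. Mir199a-1 (ENSMUSG00000065547.1) lies at chr9:21496495-21496564, minus strand, in an intron of Dnm2 on the other strand. Mir140 (ENSMUSG00000065439.1) lies at chr8:107551244-107551313, plus strand, in Wwp2 on the same strand, where 1 of 11 annotated transcripts has an exon over it and the rest have none. The only further microRNA gene within 10 kb of a member was Gm23363, with 1 count in replicate 1 and 0 in replicate 2. Its last base lies 117 nt upstream of the first base of Mir199b.

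Replicate 1 held 4442692 reads assigned to microRNA genes and replicate 2 held 2156222, so replicate 1 was 2.06-fold deeper, and the same CPM rests on more reads there. Levels are CPM, counts scaled to a total of 1000000 assigned reads, on the gene's own strand. For a count of 0 a limit of 3 counts was used as a floor, 0.675 CPM in replicate 1 and 1.39 CPM in replicate 2. The exact Poisson interval of a count of 0 reached further, to 0.830 CPM in replicate 1 and 1.71 CPM in replicate 2. Multimapping reads, 73.8% of all reads in replicate 1 and 70.2% in replicate 2 (Wilson 95% intervals within 0.0272 percentage points), are outside the gene counts. Intervals of levels are exact 95% Poisson intervals, and all intervals and limits cover counting error only, since PCR reads without molecular identifiers are not independent molecules. All 9 muscle fibre genes listed for a check of the labelled tissue had counts, and Mir206, a skeletal muscle microRNA gene, reached 11810.0 CPM in the first library and 61540 CPM in the second.

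Mir140 had the highest mean level of the 5 genes, Mir214 came next, and the Mir199 genes had few counts or none. Mir140 was counted 7117 times in replicate 1, at 1602 CPM (1565 to 1640), and 9533 times in replicate 2, at 4421 CPM (4333 to 4511). Replicate 2 was the higher library for Mir140, and the intervals did not overlap. Mir214 was counted 7197 times in replicate 1, at 1620.0 CPM (1583 to 1658), and 858 times in replicate 2, at 398 CPM (372 to 425). For Mir214 replicate 1 was the higher library, again with intervals that did not overlap. In replicate 1 the genes thus ranked next to each other, Mir214 47th and Mir140 48th among the 2202 genes, while in replicate 2 Mir140 ranked 31st and Mir214 78th.

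The Mir199 genes gave few counts. Mir199b was counted 97 times in replicate 1, at 21.8 CPM (17.7 to 26.6), and 27 times in replicate 2, at 12.5 CPM (8.25 to 18.2). Mir199a-2 was counted 53 times in replicate 1, at 11.9 CPM (8.94 to 15.6), and 12 times in replicate 2, at 5.57 CPM (2.88 to 9.72). For both genes replicate 1 gave the higher level, and the intervals of the libraries overlapped. Mir199a-1 had 0 counts in both libraries, on either strand. The 3 genes together reached 33.8 CPM in replicate 1 and 18.1 CPM in replicate 2. These levels are not the levels of the listed mature miR-199 strands: reads that match more than 1 locus are not counted, and each listed mature arm of these genes is found in 2 or 3 of their precursors. Bases 26 to 48 of the Mir199b hairpin lie in no listed arm and in no 20-base stretch shared with another microRNA gene, so reads from there could be counted. Their part in the Mir199b counts was not tested. How many multimapping reads carry miR-199 sequence was not tested. The counts also pool the arms of a hairpin, so 5p and 3p strands cannot be told apart.

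The same count was taken across the table. Of the 49 microRNA genes whose listed mature arms all occur in a precursor at another locus, 7 (14.3%) had 10 or more counts summed over the libraries and 41 (83.7%) had none. Of the 908 genes with no arm found elsewhere, 299 (32.9%) had 10 or more counts and 403 (44.4%) had none. Of the 61 genes with some arms found elsewhere and some not, 36 (59.0%) had 10 or more counts and 15 (24.6%) had none, so the shares do not order by the extent of sharing. These are descriptions of the whole table, in which family members share sequence and are not independent. Mir199a-2 and Mir199b were among the 7 and Mir199a-1 among the 41, and for Mir199b this rests on its 3p arm, the only one listed.

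**Figure D2:**
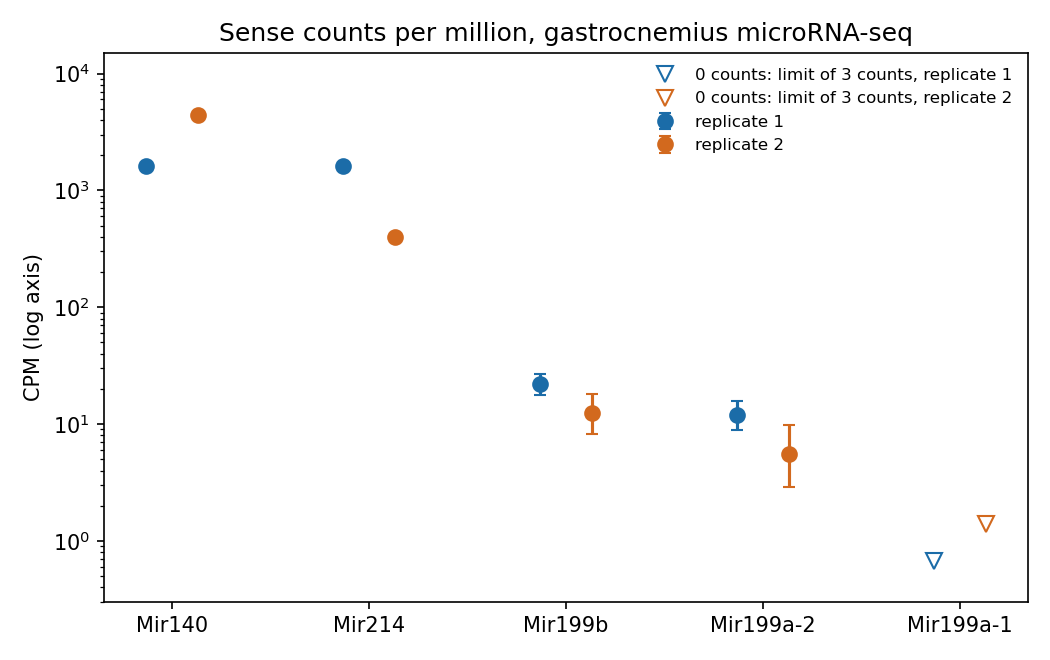
Levels of the 5 genes in CPM on a log axis, with a point for each library and bars for the exact 95% Poisson interval of its count. Open triangles give the limit of 3 counts where a gene had none. Mir140 is higher in replicate 2 at 4421 CPM, Mir214 and the Mir199 genes are higher in replicate 1, and Mir199a-1 has 0 counts.

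By mean level over the libraries (SD, n = 2) Mir140 held 3012 ± 1993 CPM, Mir214 1009 ± 864, Mir199b 17.2 ± 6.58, Mir199a-2 8.75 ± 4.50 and Mir199a-1 0. Neighbours in this order were taken to differ where the difference of their means exceeded the sum of their SDs, since an exact two-sided sign-flip test over 2 libraries cannot go below p = 0.5. Mir214 stood above Mir199b by that measure, 992 CPM against 871. Mir199a-1 had 0 counts and thus no spread to compare, and the intervals of Mir199a-2, from 8.94 CPM up in replicate 1 and from 2.88 CPM up in replicate 2, lay above the limits that 0 counts allow. Mir140 and Mir214 did not differ beyond their spread, 2003 CPM against 2858, and neither did Mir199b and Mir199a-2, 8.43 against 11.1. Inserts under 30 nt can hold a mature strand but not a whole hairpin, and levels were not divided by gene length. Whether the counted reads were whole mature strands was not tested. Divided by the annotated length of 70 or 110 nt, the mean order was the same, with Mir140 at 4302 ± 2848 CPM per 100 nt, Mir214 at 917 ± 786, Mir199b at 15.6 ± 5.99 and Mir199a-2 at 7.95 ± 4.09. In replicate 1 alone division by length put Mir140 above Mir214, at 2289 against 1473 CPM per 100 nt.

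Replicate 2 against replicate 1 asks how evenly these genes were represented in samples that carry the same labels. Mir214 was lower and Mir140 higher in replicate 2. On the log2 scale of TMM-scaled CPM + 1, the ratio of replicate 2 over replicate 1 was −1.93 for Mir214 (95% counting interval −2.04 to −1.83), a level 3.81-fold higher in replicate 1. For Mir140 it was 1.56 (1.51 to 1.60), a level 2.94-fold higher in replicate 2. Both passed the threshold, with an adjusted p of 0 to machine precision in the exact binomial test with Benjamini-Hochberg adjustment over 380 genes. Mir199b was lower in replicate 2 at −0.67 (−1.38 to −0.081; adjusted p = 0.0422, exact binomial test). For Mir199a-2 the log2 ratio was −0.90 (−2.05 to −0.084) and the adjusted p 0.0504, just short of the threshold in the same exact test.

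Of the 5 genes 4 had the 10 counts needed for the test, 2 were lower in replicate 2, 1 was higher and 1 did not pass, with a median log2 ratio of −0.78 against 0.02 over all 380 genes. The p-values concern this pair of libraries and no condition, and rest on counting error alone. By the same rule 61.8% of the 380 genes differed, 31.6% lower and 30.3% higher in replicate 2, so passing the threshold does not set these genes apart from the rest. Mir214 and Mir140 differed by at least 2-fold, against 16.6% of genes that much lower and 12.1% that much higher in replicate 2. Mir214 had the 21st lowest and Mir140 the 23rd highest ratio of the 380, whose log2 ratios had an SD of 1.13. The calls of the Mir199 genes changed with the setting. Over the alternatives run, the adjusted p of the exact binomial test ranged from 0.0169 to 0.0602 for Mir199b and from 0.0284 to 0.0504 for Mir199a-2.

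**Figure D3:**
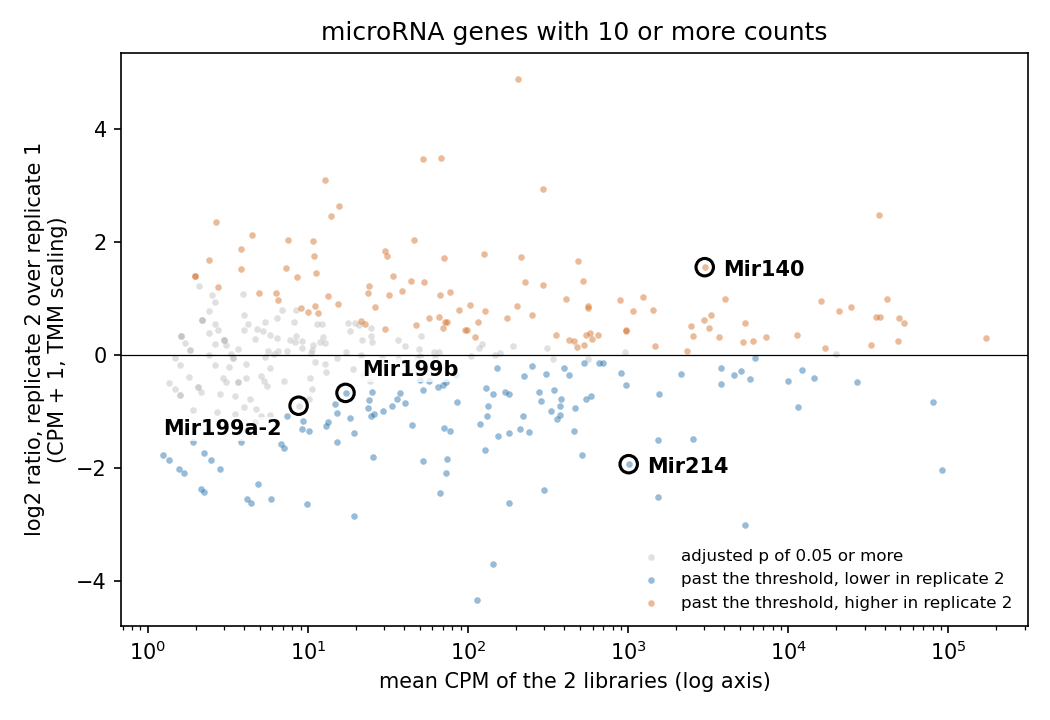
Log2 ratio of replicate 2 over replicate 1 (CPM + 1, TMM scaling) against mean CPM on a log axis for the 380 microRNA genes with 10 or more counts. Colours give the result of the exact binomial test and circles mark the members tested. Mir214 at −1.93 and Mir140 at 1.56 lie on opposite sides of 0, and the Mir199 genes lie below it at low levels.

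Ratios between members within a library do not depend on totals or scaling. Of the 6 such ratios, that of Mir214 to Mir140 differed most between the libraries. Replicate 1 held 1.01 Mir214 counts per Mir140 count and replicate 2 held 0.0900, an 11.2-fold difference (95% counting interval 10.4 to 12.1). The order of Mir140 over Mir214 therefore rests on replicate 2, with 11.1 Mir140 counts per Mir214 count, and without it the ratio was 0.989. Mir199a-2 per Mir140 count was likewise 5.92-fold higher in replicate 1 (3.16 to 11.1), at 0.745% against 0.126%. For Mir199b per Mir140 count the difference was 4.81-fold (3.14 to 7.38), at 1.36% against 0.283%.

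Mir199a-2 and Mir214, cut from the same Dnm3os transcript, both had negative log2 ratios, and of the 2 only Mir214 passed the threshold. Mir199a-2 amounted to 0.736% of the Mir214 counts in replicate 1 and 1.40% in replicate 2, a 1.90-fold difference (1.01 to 3.57). Mir199b amounted to 1.35% and 3.15% of Mir214, a 2.33-fold difference (1.52 to 3.60), and neither interval includes 1. Between Mir199b and Mir199a-2 the ratio was 1.83 in replicate 1 and 2.25 in replicate 2, and the interval of the difference, 0.576 to 2.62, includes 1. The 4 Dnm-linked genes together reached 1654 CPM in the first library and 416 CPM in the second, nearly all of it Mir214.

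Of 17 further microRNA genes linked to matrix, fibrosis or cartilage, 15 were tested, of which 5 were lower in replicate 2, 5 higher and 5 did not pass, with a median log2 ratio of 0.34. Their summed level went the other way, from 40951 CPM in replicate 1 to 27107 CPM in replicate 2. The 4 most abundant fell on both sides. Mir29a, whose mature strand targets collagen mRNAs, stood at 17002.5 CPM in the first library and 12074 CPM in the second, and Mir29c of the same family held 3796 and 1273 CPM. Mir21a, known from fibrosis, held 15456 and 7683 CPM. These 3 were lower in replicate 2, like Mir214, at log2 ratios of −0.40, −1.48 and −0.92. Mir322, which is linked to muscle cell differentiation as well as cartilage, was higher in replicate 2 at 0.63, with 2442 and 3543 CPM.

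Markers of other cell types also differed between the libraries, and their part in the differences of Mir214 and Mir140 was not tested. In bulk tissue fewer cells of a type and less RNA per cell cannot be told apart. The 9 muscle fibre genes summed to 16413 CPM in replicate 1 and 65700.1 CPM in replicate 2, with 3 members higher in replicate 2, 4 lower and 2 not passing. Mir206 carried this sum, and without it the other 8 genes summed to 4603 CPM in replicate 1 and 4160.1 CPM in replicate 2. Most of that remainder was Mir486, at 4241 CPM in replicate 1 and 3417 CPM in replicate 2. Mir499 went up from 70.9 CPM in replicate 1 to 518 CPM in replicate 2, and Mir1a-2 down from 183 CPM to 81.2 CPM. Both erythroid genes, Mir144 and Mir451a, were lower in replicate 2, their sum going from 777 CPM to 109 CPM. Mir126a, the endothelial marker, was lower in replicate 2 at 55386 CPM against 104418 CPM. Both mural genes, Mir143 and Mir145a, were higher in replicate 2, from a sum of 48845 CPM to 56840.2 CPM. The 4 leukocyte genes went both ways, 2 higher and 2 lower, with sums of 2285 and 3632 CPM. Of the 7 neural genes 5 had 0 counts, all Mir124a genes and all Mir9 genes except Mir9-3 among them, and Mir137 was higher in replicate 2. The sum of these 7 was 13.3 CPM in replicate 1 and 50.1 CPM in replicate 2. As for the Mir199 genes, reads that match more than 1 locus are outside the counts of all these lists. A low count or a count of 0 therefore cannot show that a mature strand was absent. How many multimapping reads carry sequence of the listed genes was not tested.

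**Figure D4:**
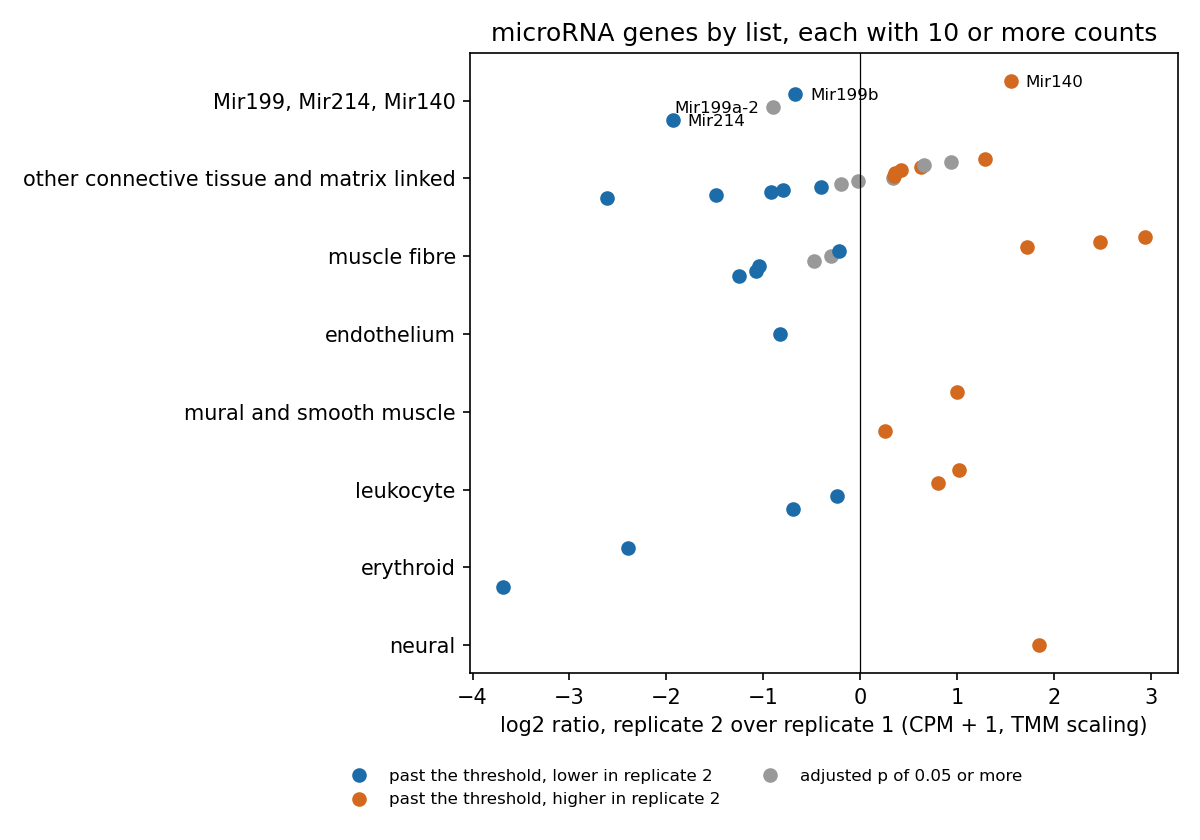
Log2 ratio of replicate 2 over replicate 1 (CPM + 1, TMM scaling) for each tested gene, by list, with 1 point per gene and colours for the exact binomial test. The members lie between −1.93 and 1.56, and the lists of connective tissue, muscle fibre and leukocyte genes also hold genes on both sides of 0.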

How the data were processed

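MicroRNA-seq of 2 gastrocnemius libraries was analysed. The authors deposited raw counts of reads per microRNA gene. Per the file readmes, they used mm10 and GENCODE M21, while aligner, read trimming and counter were not given in the sources used here. Of the 3 count columns in each table, judged from their values to ignore strand, follow the gene's strand and oppose it, the second was used. Reads of no gene (unmapped, multimapping, outside genes) stayed out of totals and tests, so that 15.7% and 19.8% of reads were assigned.

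Here CPM, mean ± SD and exact Poisson intervals were computed. Each gene with 10 or more counts summed over both libraries was tested by an exact binomial test (two-sided) of its counts given TMM-scaled totals (edgeR 4.0.16). Benjamini-Hochberg adjustment covered all 380 genes, and the threshold was 0.05. Log2 ratios used CPM + 1, and their intervals are Clopper-Pearson intervals without the added 1 CPM. The intervals of ratios between members are normal approximations on the log scale of the odds ratio. The labels give 1 group, hence no contrast, no pairing and no batch. Precursors were compared on both strands by exact stretches of 20 bases, leaving out overlapping genes. No genome sequence was used.

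Alternatives were DESeq2 1.42.0 size factors, plain totals, count minimums of 1 and 100, pseudocounts of 0.1 and 5 CPM, counts without strand, totals without Mir378a, levels per length, stretches of 18 and 22 bases and each library alone. Named genes were the members, microRNA genes within 10 kb, those sharing a seed, up to 4 of each list by mean CPM and the 3 genes nearest in level to each tested member. Members and lists were chosen with earlier results of these data known. R 4.3.3, Python 3.11.15 and scipy 1.17.1 were used.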

Additional observations from a re-analysis of the deposited data

Results flagged for a closer look

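Mir214 had 4 reads on the opposite strand in replicate 2, more than the 3 counts used as a floor, beside 858 on its own strand. In replicate 1 it had 1 such read beside 7197. These opposite-strand reads lie in an intron of Dnm3. Over the 2138 microRNA genes with no microRNA gene on the other strand, opposite-strand reads numbered 113 in replicate 1 and 44 in replicate 2. That is 0.00359% and 0.00279% of the reads on both strands, against 0.0139% and 0.464% for Mir214. No other member had a read on the opposite strand. The source of the 4 reads was not tested.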

How the results depend on the processing

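Of 83 values recomputed under other settings, 74 kept their direction and their side of the threshold, stayed within the spread or, for numbers of genes, stayed near the main number. The last rule is loose: 2 members were lower in replicate 2 in the main test and 3 with plain totals. Some values could not change label. With 2 libraries, leaving 1 out cannot move a mean level beyond its SD, and the pseudocount does not enter the p-value. The exception in direction was the order of Mir140 over Mir214, a log2 ratio of levels of 1.58, which was 3.47 without replicate 1 and −0.016 without replicate 2. Mir214 over Mir199b, 5.88, ranged from 4.99 to 6.21 with a replicate left out. The level of Mir199b was 23.9 CPM with counts without strand, where totals are smaller because Mir378a and other genes with a gene on the opposite strand lose their reads. Mir199a-2 passed the threshold with plain totals (log2 ratio −0.98), DESeq2 size factors (−0.93), no count filter (−1.02) and counts without strand (−0.94). Mir199b no longer passed at 100 or more counts (−0.58), where 1 member was lower in replicate 2, and there Mir199a-2 was not tested because it has fewer counts. Mir214 passed in every alternative run, from −2.08 to −1.83, and so did Mir140, from 1.41 to 1.66. No paired analysis was possible because there is 1 group. With 12 to 97 counts a library, the Mir199 genes have wide intervals; the parts of depth and of the multimapping reads in these low counts were not tested. A level under 0.675 CPM in replicate 1 or 1.39 CPM in replicate 2 lies under the floor of 3 counts and is too low to be read as a level.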

Other observations

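Likeness of level was measured as the distance in log2(CPM + 1) over the 2 libraries, which is a description from 2 points per gene. The genes nearest to Mir214 were Mir15a (distance 0.72, with 2650 CPM in replicate 1 and 437 CPM in replicate 2), Mir1839 (1.05) and Mir193b (1.06). Nearest to Mir140 were Mir322 (0.69), Mirlet7e (0.71, with 2593 and 3955 CPM) and Mir361 (0.75). Mir199b was nearest to Mir329, Mir194-2 and Mir877, at distances from 0.32 to 0.39. Mir199a-2 was nearest to Mir7019, Mir6945 and Mir1941, at 0.20 to 0.32. Mir199b and Mir199a-2 had closer neighbours than Mir214 and Mir140 among the 380 genes with 10 or more counts. The added 1 CPM narrows distances at low levels, and other genes of like level were not compared. The closeness is therefore not read as a trait of these members.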
